A study of Mus musculus with 6 samples.

Results

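The genes of the platelet-derived growth factor (PDGF) family were followed in cancer-associated fibroblasts (CAFs) of colitis-associated colonic adenomas. They are the 4 ligand genes Pdgfa, Pdgfb, Pdgfc and Pdgfd, the receptor genes Pdgfra and Pdgfrb, and the receptor-like gene Pdgfrl. These 7 genes were chosen by symbol among the 49548 genes of the expression table, each symbol matched 1 row, and all 7 had counts and entered the test.

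The samples are 6 libraries of 3′ mRNA sequencing, a method that reads transcripts near their poly(A) end, so that a count follows the number of transcripts and not their length. All came from Col6a1-Cre, Rosa26-mTmG mice of the C57/BL6 strain, wild type apart from these alleles, in which adenomas were raised with the carcinogen azoxymethane and the colitis-inducing agent dextran sulfate sodium (AOM/DSS). In these mice every cell carries the red Tomato protein until Cre, made under the control of Col6a1, replaces it with GFP in the cell and its descendants. After cells with CD45, CD31, Ter119 or EpCAM had been gated away, 3 libraries were made from GFP+ cells (Col6a1+ CAFs) and 3 from Tomato+ cells (Col6a1- CAFs). Both groups thus share strain, alleles, disease and gating, and differ in whether Cre had acted. They also differ in cell type. According to the paper, Cre acts mainly in fibroblasts with much PDGFRα and in pericytes. Every trophocyte and most PDGFRα-low fibroblasts are, by its account, among the Col6a1- cells. The sort itself thus divided cell types that are told apart by PDGF receptors. There was no untreated group, and each sample is a pool of tumors from several mice. The paper counts 3 samples in all, so both subsets may have been sorted from the same 3 pools. The labels do not say so. The p-values below measure the spread between 3 libraries per group, and unless a replicate block is named the fit ignored such pairing. Homeostatic cells were not analysed here.

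The libraries were alike in their sums, between 3039152 and 3425249 normalized counts, and the number of reads behind them is not given in the sources used here. Between 14530 and 20511 genes were detected, the fewest in the first Col6a1+ library, in which 2 of the PDGF genes were at 0. In the third Col6a1+ library 1 was at 0, and in the other 4 libraries none.

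PDGFs are dimers secreted by one cell and bound by receptor tyrosine kinases on another. PDGF-A and PDGF-C act mainly on PDGFRα, PDGF-B on both receptors, and PDGF-D mainly on PDGFRβ, and the bound receptors pair, phosphorylate each other and recruit PI3-kinase, phospholipase Cγ, SRC kinases and the RAS-ERK cascade. In the gut, epithelial PDGF-A keeps PDGFRα-bearing fibroblasts beneath the crypts and villi, where cells with the most PDGFRα (telocytes) are told apart from PDGFRα-low fibroblasts and trophocytes. Endothelial PDGF-B holds PDGFRβ-bearing pericytes and smooth muscle cells, together called mural cells, on blood vessels.

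The 7 genes lie on 6 chromosomes (mm10, positions as deposited). Pdgfra spans chr5:75152292-75198215 on the plus strand, with up to 23 exons in a GENCODE transcript, and Pdgfa spans chr5:138976014-138997370 on the minus strand of the same chromosome. Pdgfrl spans chr8:40926212-40990785 (plus strand) and Pdgfb chr15:79995900-80014808 (minus). The genes of both CUB-domain ligands are the longest, Pdgfc at chr3:81036416-81214040 and Pdgfd at chr9:6168584-6378850, both on the plus strand, with 178 and 210 kb.

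Promoter sequences of RefSeq (GRCm38.p6, 250 bases before to 50 after a transcript start) were at hand for Pdgfa, Pdgfc, Pdgfd and Pdgfra, and those of Pdgfb, Pdgfrb and Pdgfrl were not looked at. Shown is that of Pdgfra, which like Pdgfrb had a called difference. Also shown are those of the ligand genes Pdgfa, higher within every replicate number, and Pdgfc, low or at 0 in Col6a1+ CAFs. Capitals mark motifs found on either strand among 4 that were searched: the TATA box (TATAAA), the GC box (GGGCGG), the RBPJ motif read by Notch signalling (GTGGGAA) and the CArG box of serum response factor.
Pdgfra, chr5:75152001-75152300, plus strand: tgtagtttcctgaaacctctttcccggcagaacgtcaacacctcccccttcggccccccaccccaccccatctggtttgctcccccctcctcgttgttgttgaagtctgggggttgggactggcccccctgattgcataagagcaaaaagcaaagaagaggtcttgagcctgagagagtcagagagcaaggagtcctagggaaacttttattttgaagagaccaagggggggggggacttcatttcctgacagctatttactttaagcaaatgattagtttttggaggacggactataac
Pdgfa, chr5:138994895-138995194, minus strand: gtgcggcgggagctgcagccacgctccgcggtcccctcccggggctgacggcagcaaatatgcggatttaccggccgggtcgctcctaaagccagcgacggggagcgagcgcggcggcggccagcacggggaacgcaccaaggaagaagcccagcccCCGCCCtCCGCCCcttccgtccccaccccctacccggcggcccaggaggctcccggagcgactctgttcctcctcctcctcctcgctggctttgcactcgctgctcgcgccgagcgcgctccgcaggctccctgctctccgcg
Pdgfc, chr3:81036166-81036465, plus strand: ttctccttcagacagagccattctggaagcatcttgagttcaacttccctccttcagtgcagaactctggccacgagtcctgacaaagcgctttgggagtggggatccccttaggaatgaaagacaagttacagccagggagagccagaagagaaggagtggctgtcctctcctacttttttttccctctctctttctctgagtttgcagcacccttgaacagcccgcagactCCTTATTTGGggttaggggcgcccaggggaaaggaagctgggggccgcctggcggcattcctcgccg

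The window of Pdgfra held none of the 4 motifs and 5 CpG dinucleotides, below the median of 7 over 32817 promoters. That of Pdgfa was a CpG-rich sequence with 37 CpG and a GC content of 73.3%, and it held 2 GC boxes, a motif found in 35.6% of all promoters. A second Pdgfa start, at chr5:138994232-138994531, had 24 CpG and 1 GC box. The window of Pdgfc held 8 CpG and 1 CArG box, which occurs in 1.63% of all promoters, and that of Pdgfd, at chr9:6168236-6168535, held 8 CpG and 1 TATA box (13.6% of all promoters). None of the 5 windows held the RBPJ motif, which occurs in 6.39% of all promoters. A match describes letters at any position in the window, not only where such a motif usually acts. It says nothing of whether a factor binds there.

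Transcripts of both PDGF receptors were higher in Col6a1+ than in Col6a1- CAFs, Pdgfrb 19.4-fold and Pdgfra 4.12-fold, while no ligand gene passed the test across all genes. By limma on the log2 of the normalized count plus 1, with p-values adjusted over 26402 genes, 2 of the 7 genes were called higher at an adjusted p under 0.05, against 2.66% of all genes tested. None of the 7 was called lower, against 1.96% of all genes. At an unadjusted p under 0.05 with a log2 fold change beyond 1 in size, 2 genes were higher, against 6.09% of all genes, and 1 gene (Pdgfc) was lower, against 8.61%. With limma-voom, too, 2 were called higher and 0 lower, against 804 and 1006 of the 26402 genes. The libraries of both groups were fully apart for 2 of the 7 genes in the higher direction, against 7.91% of all genes, and for 0 in the lower direction, against 11.6%. These are sorted bulk samples, in which fewer cells of a type and less RNA per cell cannot be told apart.

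**Figure D1:**
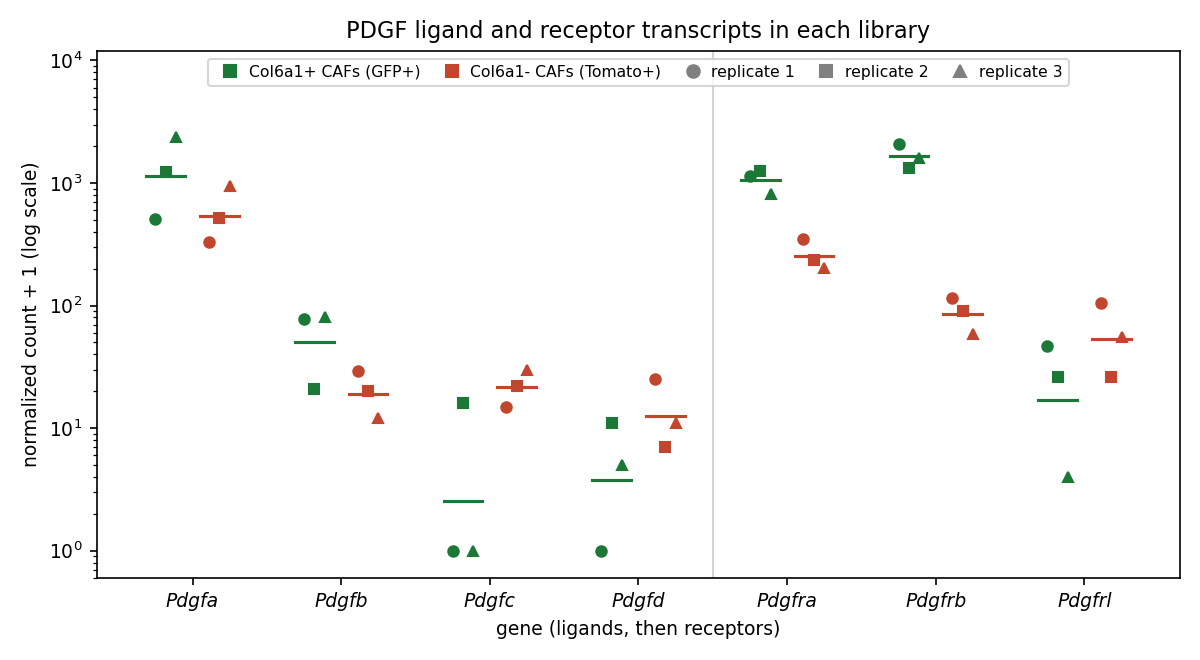
Normalized counts plus 1 of the 7 PDGF genes (log scale) in the 3 Col6a1+ (green) and 3 Col6a1- (red) CAF libraries, with the symbol giving the replicate number and the bar the mean on the log scale. The groups are apart for Pdgfra and Pdgfrb and overlap for the other 5 genes.

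Pdgfa encodes the A chain, the ligand whose receptor is PDGFRα. It had 505, 1235 and 2352 normalized counts in Col6a1+ CAFs (replicates 1 to 3) and 326, 513 and 938 in Col6a1- CAFs. The ranges overlapped, since Col6a1- replicate 3 lay above Col6a1+ replicate 1, and in both groups replicate 3 was the highest and replicate 1 the lowest. Within each replicate number the Col6a1+ library was higher, by 1.55, 2.41 and 2.51 times. The means were 1364 ± 930 and 592 ± 314 (SD, n = 3 each), and the log2 fold change was 1.07 ± 0.54 (SE), with a 95% interval of -0.13 to 2.27 and an adjusted p of 0.373 by limma. The replicate numbers were read as pairs, although the correlations behind this reading were weak, as described under the processing. Once the fit had the replicate number as a block, Pdgfa had an adjusted p of 0.12 in limma. In the same blocked fit over the 13515 genes whose mean was at least 10 normalized counts it was 0.027, so that Pdgfa was then called higher with Pdgfra and Pdgfrb. That fit called 3 of the 7 genes higher, against 7.26% of all genes in it, and none lower, against 6.44%. The call of Pdgfa thus rested on the block together with the filter.

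Part of the Pdgfa locus is covered from the other strand. The antisense gene 6330403L08Rik, at chr5:138995056-139000577 on the plus strand, begins inside the Pdgfa promoter window printed above and shares 813 exonic bases with 3 Pdgfa transcripts. It had 35, 40 and 73 normalized counts in Col6a1+ and 24, 9 and 6 in Col6a1- CAFs. Its log2 fold change was 1.99, with an adjusted p of 0.17 by limma. The sources used here do not say whether counting used the strand, so reads of the gene pair may be split between them.

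Pdgfb encodes the B chain, which binds both receptors and recruits mural cells to vessels. It had 77, 20 and 79 normalized counts in Col6a1+ CAFs and 28, 19 and 11 in Col6a1- CAFs. Col6a1+ replicates 1 and 3 lay above all Col6a1- libraries, while replicate 2 lay among them, and the ratio within a replicate number ran from 1.05 to 7.18. Means were 58.7 ± 33.5 and 19.3 ± 8.5 (SD, n = 3 each). The log2 fold change of 1.41 ± 0.69 (SE) had a 95% interval of -0.13 to 2.95 and an adjusted p of 0.36 by limma, and 0.377 with the block.

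Endothelial and platelet transcripts, which mark other sources of PDGF-B, were low or uneven. The 10 endothelial markers summed to 217 to 444 normalized counts in Col6a1+ and 215 to 503 in Col6a1- CAFs, and the median of their log2 fold changes was -1.21. The gene Tie1 was called higher, with 220, 56 and 152 counts against 1, 7 and 21, and gave 220 of the 371 counts of the list in Col6a1+ replicate 1. The other 9 had log2 fold changes below 0, none of them called, such as Cdh5 with 10, 4 and 9 against 39, 24 and 24, whose groups were apart. Pecam1, which encodes the sorted-out CD31, had at most 27 counts in Col6a1+ and 64 in Col6a1- CAFs. The platelet markers Pf4, Ppbp and Itga2b summed to 136, 16 and 9 in Col6a1+ CAFs and to 354, 33 and 2242 in Col6a1- CAFs, where the third library held 2222 counts of Pf4, and Gp9 and Gp1ba were at 0 in every library. That library, Col6a1- replicate 3, had 9 counts of Ppbp, 11 of Itga2b and 11 of Pdgfb, the lowest Pdgfb count of all. Col6a1- replicate 1, with the most Ppbp (333), had the highest Pdgfb count of its group, 28. The part of endothelial and platelet transcripts in the ligand values was not tested.

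Pdgfc encodes a ligand that is secreted in a latent form and released by proteases. It had 0, 15 and 0 normalized counts in Col6a1+ CAFs and 14, 21 and 29 in Col6a1- CAFs. All of its counts in Col6a1+ CAFs came from 1 library, whose 15 counts exceeded the lowest Col6a1- library, so the groups overlapped. A value of 0 allows up to 3 raw counts, whose size on the normalized scale is not known. The fold change thus depends on the pseudocount. On the scale of the count plus 1 the log2 fold change was -3.09 ± 1.22 (SE), with a 95% interval of -5.79 to -0.39, an unadjusted p of 0.0288 in the limma model and an adjusted p of 0.226. This is the gene that passed the looser criterion in the lower direction. Among the fits tried its adjusted p reached its lowest value, 0.0761, with limma-voom.

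Pdgfd encodes the other protease-activated ligand. It had 0, 10 and 4 normalized counts in Col6a1+ and 24, 6 and 10 in Col6a1- CAFs. The groups overlapped, and in replicate 2 the Col6a1+ library was the higher of the pair. The log2 fold change was -1.71 ± 1.14 (SE), with a 95% interval of -4.23 to 0.81 and an adjusted p of 0.519 by limma. No difference was detected at these counts. The genes that overlap ligand loci other than Pdgfa, Mir7213 in Pdgfb, Gm16000 in Pdgfc and Ddi1 in Pdgfd, were at 0 in every library.

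**Figure D2:**
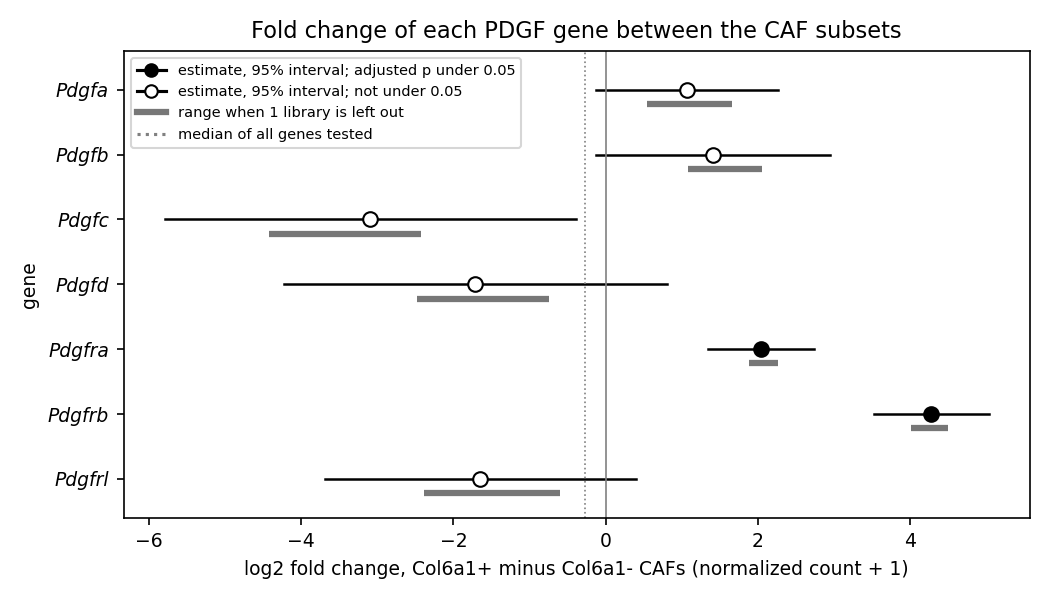
Log2 fold change (Col6a1+ minus Col6a1- CAFs) of each PDGF gene with its 95% interval from limma; filled points have an adjusted p under 0.05, the grey bars span the estimates with 1 library left out, and the dotted line is the median of all genes, -0.27. Pdgfrb at 4.28 and Pdgfra at 2.04 are filled, the interval of Pdgfc ends at -0.39, and those of the other 4 genes cross 0.

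Pdgfra encodes the receptor for the A and C chains. It had 1145, 1253 and 808 normalized counts in Col6a1+ CAFs and 347, 233 and 203 in Col6a1- CAFs. The groups were fully apart, the lowest Col6a1+ library lying above the highest Col6a1- library, and the ratios within a replicate number were 3.3, 5.38 and 3.98. Col6a1- CAFs were not devoid of it, with a mean of 261 ± 76 against 1069 ± 232 (SD, n = 3 each). The log2 fold change was 2.04 ± 0.32 (SE), with a 95% interval of 1.34 to 2.74 and an adjusted p of 0.00588 by limma. With the replicate block the adjusted p was 0.0612 over all genes, a fit in which no gene passed, and 0.003 over genes with a mean of at least 10. Without any 1 of the 6 libraries the call was lost, at adjusted p-values from 0.0581 (without Col6a1- replicate 1) to 0.14 (without Col6a1+ replicate 3), while the log2 fold change stayed between 1.88 and 2.27.

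A microRNA gene that lies inside Pdgfra may hold reads of it. Mir7025, at chr5:75176831-75176904 on the same strand, shares 30 of its 74 bases with exons of 4 Pdgfra transcripts. It had 186, 87 and 87 normalized counts in Col6a1+ and 65, 22 and 10 in Col6a1- CAFs. Its log2 fold change was 2.15, with an adjusted p of 0.109 by limma. Poly(A)-primed libraries do not capture mature microRNAs, so its counts cannot be told apart from those of Pdgfra. The antisense gene Gm42802 within Pdgfra was at 0 in every library.

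Pdgfrb encodes the receptor that mural cells carry on vessels, and spans chr18:61045150-61085061 on the plus strand with up to 24 exons. It had 2084, 1329 and 1612 normalized counts in Col6a1+ CAFs and 115, 89 and 58 in Col6a1- CAFs. The lowest Col6a1+ library was more than 10 times the highest Col6a1- library, and the ratios within a replicate number were 18.1, 14.9 and 27.8. The means were 1675 ± 381 and 87.3 ± 28.5 (SD, n = 3 each). The log2 fold change was 4.28 ± 0.34 (SE), with a 95% interval of 3.52 to 5.03 and an adjusted p of 0.000336 by limma. With the block the adjusted p was 0.0612 over all genes and 0.000579 over genes with a mean of at least 10. It was called without Col6a1- replicate 2 (adjusted p 0.0479) or 3 (0.0367) and lost without any 1 of the other 4 libraries, at adjusted p-values from 0.0503 to 0.14, with log2 fold changes between 4.01 and 4.50.

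A neighbour of Pdgfrb was called in the other direction. Cdx1, an intestinal epithelial transcription factor gene 8951 bases away on the opposite strand, had a log2 fold change of -2.42 ± 0.37 (SE) with an adjusted p of 0.00582 by limma.

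Pdgfrl encodes a secreted protein with similarity to the extracellular part of the receptors and no kinase. It had 46, 25 and 3 normalized counts in Col6a1+ CAFs and 104, 25 and 54 in Col6a1- CAFs. The groups overlapped, and in replicate 2 both libraries had 25. The log2 fold change was -1.65 ± 0.92 (SE), with a 95% interval of -3.69 to 0.40 and an adjusted p of 0.434 by limma. The genes on both sides of it were called higher. Slc7a2, a transporter of basic amino acids 3904 bases upstream, had a log2 fold change of 3.59 (adjusted p 0.00464, limma), and Mtus1, which ends 129 bases from Pdgfrl on the opposite strand, had 1.49 (adjusted p 0.0138, limma).

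Whether the receptor genes differed by unequal amounts was examined as the log2 difference between Pdgfra and Pdgfrb within each library, in which the effect of the library's scaling cancels. It was -0.86, -0.08 and -1.0 in Col6a1+ CAFs and 1.58, 1.38 and 1.79 in Col6a1- CAFs. Every Col6a1+ library was below 0 and every Col6a1- library above it, so that the count of Pdgfra was 0.549, 0.943 and 0.501 times that of Pdgfrb in Col6a1+ CAFs and 3.02, 2.62 and 3.5 times in Col6a1- CAFs. The counts of different genes also depend on how well each 3′ end is captured, so it is the shift between the subsets and not the sign that was compared. The shift was -2.23 on the log2 scale, from a mean of 1.58 ± 0.21 in Col6a1- to -0.65 ± 0.49 in Col6a1+ CAFs (SD, n = 3 each), or 4.7 times. The exact permutation test, two-sided, gave p = 0.1, the smallest value that 3 against 3 libraries allow.

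**Figure D3:**
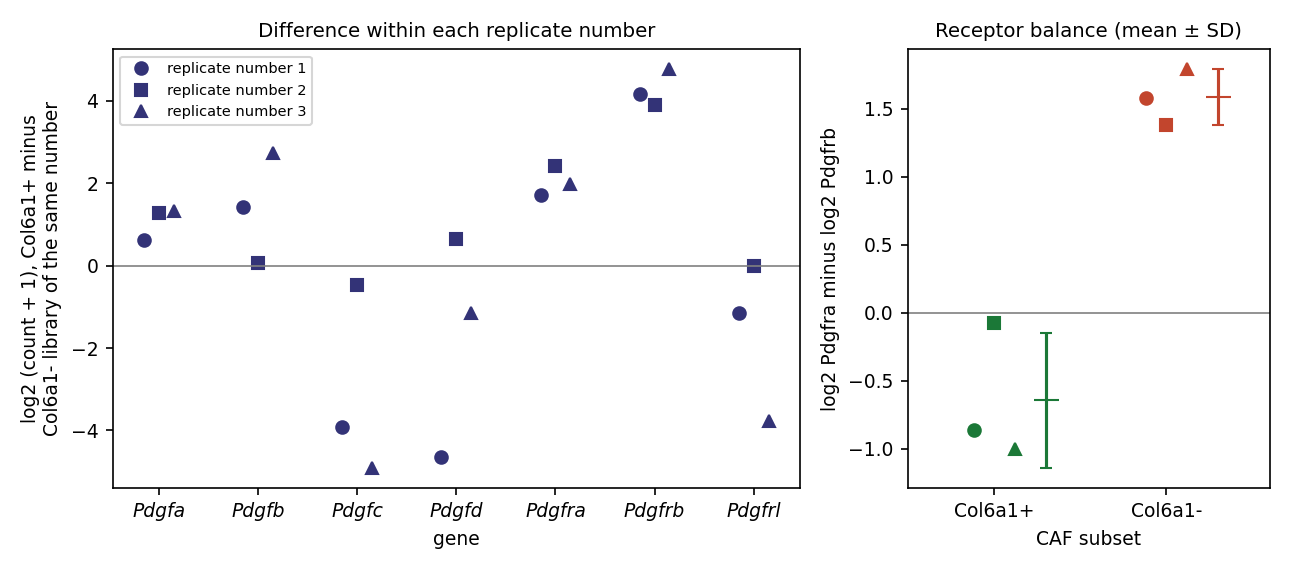
Left, log2 difference (count plus 1) between the Col6a1+ and the Col6a1- library of each replicate number for the 7 genes; right, log2 Pdgfra minus log2 Pdgfrb in each library with mean ± SD. All 3 differences are above 0 for Pdgfa, Pdgfb, Pdgfra and Pdgfrb, and the receptor balance lies from -1.0 to -0.08 in Col6a1+ and from 1.38 to 1.79 in Col6a1- CAFs.

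The cell types that carry either receptor were looked at through marker genes. All 9 pericyte markers were called higher in Col6a1+ CAFs, and their sum was 89912, 41450 and 46872 normalized counts against 2091, 1533 and 1118. Among them Rgs5 had a log2 fold change of 6.16, Cspg4 (the proteoglycan NG2) of 6.15 and Notch3 of 5.77, each larger than the 4.28 of Pdgfrb. Of 6 smooth muscle markers 4 were called higher, with a sum of 11166 to 23541 against 441 to 2171, and Cnn1 and Myocd were not called. Their part in the difference of Pdgfrb was not tested.

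Of 7 markers of PDGFRA-high telocytes, 3 were called higher (Bmp3, Bmp5 and Wnt5a), and the sum was 1833, 3292 and 1976 in Col6a1+ CAFs against 1134, 1043 and 1207. Foxl1, with 240, 216 and 121 against 66, 77 and 38 counts, did not overlap between the groups and had an adjusted p of 0.0592 by limma. The rest of the list overlapped between the groups and was not called, with log2 fold changes of 0.47 (Bmp7), -0.00 (Sox6) and -0.35 (F3). The 8 markers of trophocytes and PDGFRA-low fibroblasts had a sum of 713 to 996 against 1556 to 2063, and Cd34 and Cd81 were called lower. Their part in the difference of Pdgfra was not tested.

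The label of both groups as fibroblasts was checked in the same way. The pan-fibroblast markers (Col1a1, Col1a2, Col3a1, Dcn, Lum and Fn1) were present in all libraries, and 4 of 6 were called higher. Their sum was 41208 to 44325 in Col6a1+ and 7880 to 15528 in Col6a1- CAFs. They were higher 4.63-fold (Col1a1), 5.66-fold (Col1a2), 3.51-fold (Col3a1), 2.48-fold (Fn1), 1.88-fold (Dcn) and 1.48-fold (Lum), beside 4.12-fold for Pdgfra. The part of such a general difference in that of Pdgfra was not tested. Epithelial transcripts remained after the EpCAM gate. In every Col6a1- library the epithelial sum was above the pan-fibroblast sum, though the lists hold different genes. The 10 markers summed to 5590 to 6296 in Col6a1+ and 20210 to 32210 in Col6a1- CAFs, and 7 were called lower in Col6a1+ CAFs, Epcam among them with 1074, 884 and 615 against 3107, 4129 and 3730 counts. Immune markers summed to 45 to 84 counts in Col6a1+ and 126 to 203 in Col6a1- CAFs. Their median log2 fold change was -2.01, and none was called. Glial markers summed to at most 73 and 76 counts. Erythroid markers summed to 68 to 946 and 149 to 312 counts, and markers of interstitial cells of Cajal to 321 to 614 and 91 to 174. Most of the Cajal sum was Ano1, with 292, 476 and 564 counts against 73, 151 and 151. Etv1 was higher too and not called, while Kit went the other way, with 0, 0 and 5 counts against 15, 12 and 14. The epithelium is a known source of Pdgfa, which had its higher counts in the subset with the lower epithelial sums, and the part of epithelial transcripts in these values was not tested.

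**Figure D4:**
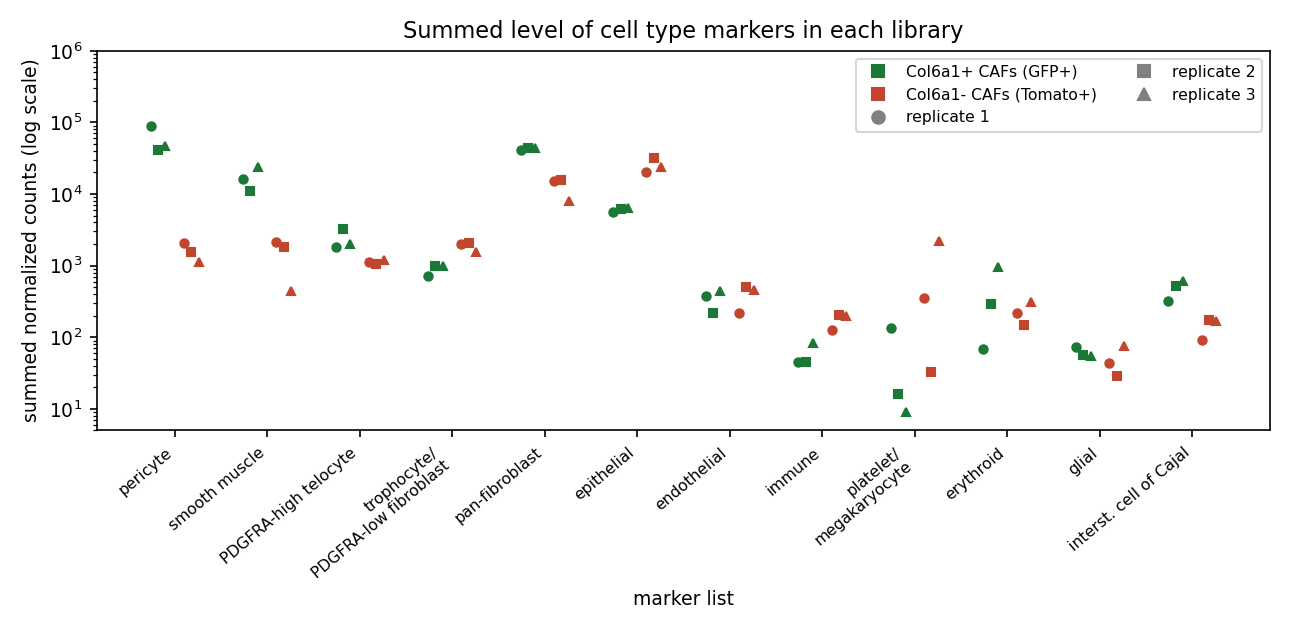
Summed normalized counts (log scale) of 12 lists of cell type markers in the 3 Col6a1+ (green) and 3 Col6a1- (red) CAF libraries. The pericyte sums, from 41450 to 89912 against 1118 to 2091, are the farthest apart. The epithelial and trophocyte sums, and the much smaller immune sums, are higher in Col6a1- CAFs.

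The genes whose log2 values over the 6 libraries were most like those of each PDGF gene were listed among 11810 protein-coding genes whose mean was 10 normalized counts or more. The points are the same 6 libraries in 2 groups, so a gene that differs between the subsets gives a high correlation by that alone, and the values are a description. For Pdgfra they were Cxcl14 (Pearson's r = 0.9996), a chemokine gene with 2305, 2421 and 1814 counts against 1039, 821 and 718, Gucy1a3 (r = 0.9947), a subunit of the nitric oxide receptor guanylate cyclase, and the collagen gene Col22a1 (r = 0.993). For Pdgfrb they were Tmtc1 (r = 0.9994), Aspn (r = 0.999), which encodes the matrix protein asporin and had 619, 419 and 474 counts against 58, 51 and 30, and Trim47 (r = 0.9984). For Pdgfa, whose replicates were ranked alike in both groups, they were Gcn1l1 (r = 0.9986), Rbms3 (r = 0.9919) and the cyclin gene Ccnd1 (r = 0.9914), none of which was called. Uba1 (r = 0.9956) led for Pdgfb and Leo1 (r = 0.9893) for Pdgfrl, and Dnajc5 (r = 0.9792) was among those of Pdgfc.

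The other genes of the pathway were described by list. Of 8 genes that activate, bind or assist PDGFs, 2 were called higher in Col6a1+ CAFs and 1 lower, against 2.66% and 1.96% of all genes tested, with a median log2 fold change of 1.24 against -0.27 over all genes. Sparc, a matrix protein that binds PDGF-B, had 9701, 21148 and 22436 normalized counts against 1747, 3724 and 2278, a log2 fold change of 2.76 ± 0.40 (SE) and an adjusted p of 0.00446 by limma. Plau, the urokinase that can release active PDGF-D, had 169, 174 and 208 counts against 73, 31 and 45, with a log2 fold change of 1.94 ± 0.42 and an adjusted p of 0.0261 by limma. For both genes the groups did not overlap.

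The protease gene called lower was St14, which encodes matriptase, a membrane protease of epithelia that can also cleave PDGF-D. It had 198, 175 and 104 counts against 563, 844 and 1004, with a log2 fold change of -2.34 ± 0.35 (SE) and an adjusted p of 0.00528 by limma. This was in the direction of the epithelial markers above, whose part was not tested. Plat, the tissue plasminogen activator that releases PDGF-C, had 602, 428 and 755 counts against 587, 294 and 457, overlapping groups and an adjusted p of 0.603 by limma. The proprotein convertase gene Furin, whose product cleaves the A and B precursors, had a log2 fold change of -0.22 (adjusted p 0.7, limma), and Pcsk5 had 1.78 (adjusted p 0.139, limma). Nrp1, a co-receptor gene, had 83, 426 and 355 counts against 7, 69 and 39, which did not overlap, and an adjusted p of 0.0674 by limma, or 0.00311 with the block and a mean of at least 10.

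Among 25 signal transducers of the receptors, 2 were called higher, against 2.66% of all genes tested, and 0 lower, against 1.96%. At an unadjusted p under 0.05, 3 were higher and 0 lower, and the share of all genes at that limit was not counted. Limma-voom called 2 higher and 0 lower, against 804 and 1006 of 26402 genes. The median log2 fold change was 0.16. Pik3r1, the regulatory p85α subunit of PI3-kinase that docks on both receptors, had 353, 434 and 594 counts against 104, 121 and 152, a log2 fold change of 1.85 ± 0.33 (SE) and an adjusted p of 0.0115 by limma. Its groups were apart. Of the 25, 23 were not called, among them the adaptor Grb2 (log2 fold change -0.11), the phosphatase Ptpn11 (0.08), Plcg1 (-0.65) and the ERK gene Mapk3 (-0.12).

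Among 9 negative regulators of the receptors, 1 was called higher by limma, against 2.66% of all genes tested, and 0 lower, against 1.96%. With limma-voom, 1 was higher and 0 lower, against 804 and 1006 of 26402 genes. The median log2 fold change was 0.47. At an unadjusted p under 0.05, 2 were higher and 0 lower, and the share of all genes at that limit was not counted. The gene called was Sh2b3, which encodes the adaptor LNK, with 663, 241 and 650 counts against 95, 51 and 38. Its groups were apart, and the log2 fold change was 3.02 ± 0.49 (SE) with an adjusted p of 0.0069 by limma. The ubiquitin ligase gene Cbl, with 317, 238 and 282 counts against 135, 117 and 153, was not called (adjusted p 0.098, limma), though it was with the block and a mean of at least 10 (0.0466).

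The 12 ERK feedback genes, which are induced by ERK and most of which restrain it, were divided. Of these, 2 were called higher, against 2.66% of all genes tested, and 2 lower, against 1.96%. The median log2 fold change was 0.84, against -0.27 over all genes. Spry4 had 566, 125 and 125 counts against 23, 42 and 25, a log2 fold change of 2.80 ± 0.60 (SE) and an adjusted p of 0.0266 by limma. Spry1, another Sprouty gene, had 202, 109 and 217 against 27, 33 and 50, with 2.22 ± 0.45 and an adjusted p of 0.02 by limma. Both Sprouty genes had their groups apart, although the first Col6a1+ library of Spry4 was more than 4 times the others, and without it the log2 fold change of Spry4 was 2.07 (adjusted p 0.0691, limma).

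The transcription factor gene Etv5 was lower, with 39, 66 and 89 counts against 350, 272 and 502, a log2 fold change of -2.55 ± 0.41 (SE) and an adjusted p of 0.0067 by limma. So was the ERK phosphatase gene Dusp6, with 589, 663 and 465 against 1225, 1682 and 1291, and a log2 fold change of -1.29 ± 0.28 (adjusted p 0.0263, limma). Their groups were apart. The epithelial marker sums were higher in the same libraries, and their part was not tested.

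The kinases closest to the PDGF receptors, encoded by Kit, Csf1r and Flt3, had few counts. Kit had 0, 0 and 5 counts in Col6a1+ CAFs and 15, 12 and 14 in Col6a1- CAFs, groups that did not overlap, with an adjusted p of 0.16 by limma. Csf1r and Flt3 had at most 5 counts in any library. None of the 3 was called by limma, and 1 (Kit) had an unadjusted p under 0.05. Limma-voom called that 1 lower, against 1006 of 26402 genes.

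**Figure D5:**
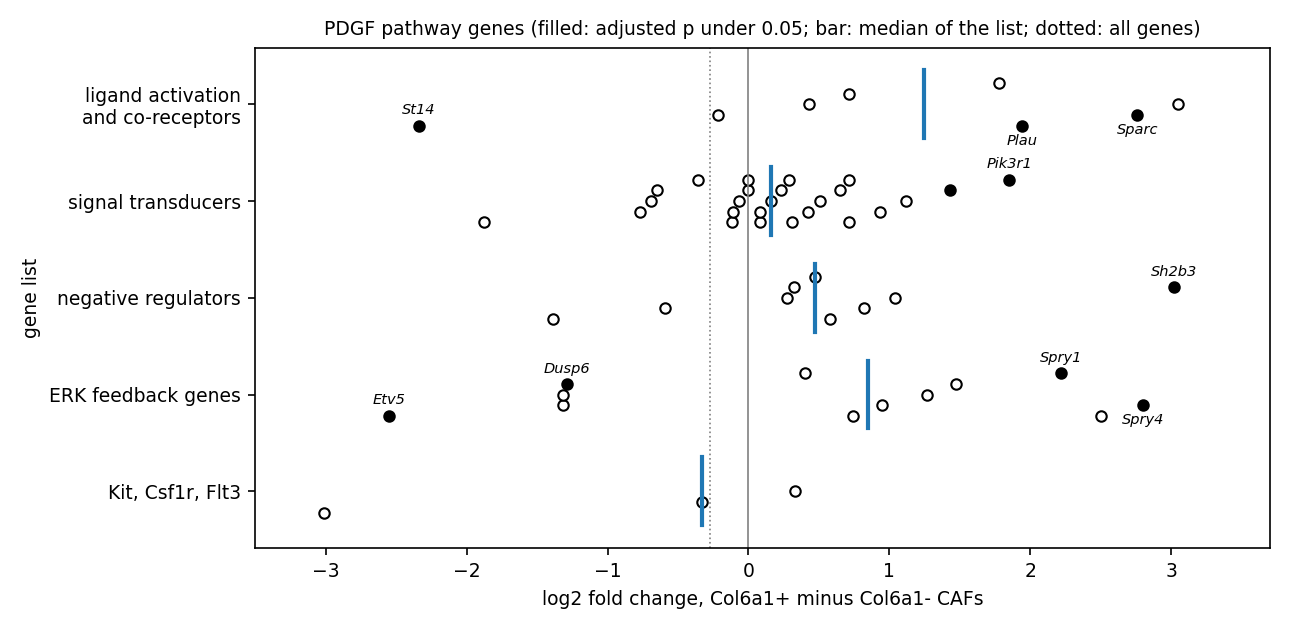
Log2 fold change (Col6a1+ minus Col6a1- CAFs) of the genes of 5 lists around the PDGF receptors, 1 point a gene, with the median of each list as a bar and that of all genes as a dotted line. Filled points, with an adjusted p under 0.05 by limma, lie on both sides of 0 among the ligand-activating and the ERK feedback genes.

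With the replicate block over all genes no gene passed, and the 9 genes of these lists named here as called then had adjusted p-values from 0.0612 to 0.147 by limma. All 9 were called in the blocked fit with a mean of at least 10, which called 7.26% of its genes higher and 6.44% lower. The 9 had been picked by their calls in these same libraries, so this is no separate support. Each lost its call when any 1 of the 6 libraries was left out. The pericyte, smooth muscle and epithelial marker sums separated the same libraries, and their part in these values was not tested.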

How the data were processed

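3′ mRNA libraries (QuantSeq, Ion Proton) of 3 Col6a1+ and 3 Col6a1- CAF samples were grouped and numbered by their labels. The authors mapped reads to mm10 with TopHat2 and then Bowtie2, counted them per gene and normalized with DESeq through metaseqr. They deposited the log2 of the normalized count plus 1 per library for 49548 genes, and all values correspond to whole normalized counts within 1.89e-09. Columns with the authors' fold changes and p-values, and 6 further columns of per-sample values, were not used.

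The deposited log2 values were fitted with limma 3.58.1 (R 4.3.3, eBayes with trend, two-sided, Benjamini-Hochberg) over the 26402 genes that had 1 normalized count or more in total, and an adjusted p under 0.05 was called. The fit had 6.48 prior and 4 residual degrees of freedom. Its code was also run on simulated counts without pairs, in which only genes with a mean of at least 10 were changed. That run does not bear on genes with lower counts or on pairing. No libraries held identical values. The PDGF genes, pathway lists and markers were chosen with earlier results of these data known. Named genes are the 7 members, at most 4 called genes per list and direction, 3 most similar genes per member with a mean of at least 10, genes within 10 kb of a member, and further list members given as values. Some genes that this rule names are not reported here.

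Deviations from the group means, over 13515 genes with a mean of at least 10, correlated at 0.245, 0.125 and 0.144 between libraries of the same replicate number, and at -0.245 to 0.15 between libraries of different numbers (the highest, Col6a1+ replicate 2 with Col6a1- replicate 3, lay above 2 of the same-number values). The numbers were read as pairs because every same-number correlation was over 0.1. Alternatives were other filters, a pseudocount of 0.1, library size alone, limma-voom, the block, and leaving out each library. The receptor balance was tested with SciPy 1.17.1, figures were drawn with Matplotlib 3.10.9, gene models are those of GENCODE for mm10, and promoters are those of RefSeq. Intervals and the limit of 3 raw counts at a value of 0 cover the spread of these samples or counting error only.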

Additional observations from a re-analysis of the deposited data

How the results depend on the processing

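All PDGF genes kept the direction of their fold change under every alternative in which they were fitted, and the shift in receptor balance stayed between -2.51 and -2.06 with 1 library left out. The calls depended on the fit. Over all genes, 703 were called higher and 517 lower. Without a filter on low counts, where genes at 0 in every library enter the variance trend, 21 and 7 were called, and 0 of the PDGF genes. With the replicate block over all genes, 0 genes were called in either direction, with 4418 at an unadjusted p under 0.05 and the smallest adjusted p at 0.0612, and 0 of the PDGF genes. With the block and a mean of at least 10, 871 were called lower. A pseudocount of 0.1 gave 336 lower and limma-voom 1006 lower. At an unadjusted p under 0.05 with a log2 fold change beyond 1, 1607 were higher and 2273 lower, with 1 PDGF gene (Pdgfc) lower. With 1 library left out, 0 to 98 genes were called higher and 0 to 166 lower, and of the PDGF genes 0 to 1 were called higher. These fits have fewer samples. Calls remained only without Col6a1- replicate 2 (98 higher, 166 lower) or replicate 3 (63 and 125), where the PDGF gene called was Pdgfrb. The exact sign-flip test of the paired receptor balance gave p = 0.25, the smallest that 3 pairs allow. Counts near 0 limit Pdgfc, Pdgfd and Pdgfrl, and Pdgfd, whose mean lies below 10, was not in the fits with that filter.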
